A study of Mus musculus with 8 samples.

Results

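A set of 10 secreted signalling genes was followed through the adult mouse liver. It comprised the R-spondins *Rspo1*, *Rspo2* and *Rspo3* and the Wnt ligands *Wnt2*, *Wnt2b*, *Wnt4*, *Wnt5a*, *Wnt5b*, *Wnt9b* and *Wnt11*. They were chosen by name, as 10 of the 46517 genes of a single-cell count table. The question was which endothelial, stellate, mural and fibroblast clusters carried the transcripts of each ligand. The table held 3491 cells from livers of healthy adult C57Bl6 mice of both sexes, read with Smart-seq2, which sequences full-length polyadenylated RNA from 1 sorted cell per well. Hepatocytes were taken without enrichment, cholangiocytes with an antibody against EPCAM, and Kupffer cells with an antibody against CD68. Endothelial cells were sorted with antibodies against PECAM1 and/or CDH5 or by the GFP signal of *Cldn5* GFP mice. Mesenchymal cells were sorted by the GFP of *Pdgfrb* GFP, *Pdgfra* H2bGFP or *Acta2* GFP reporter mice, or with an antibody against PDGFRA. All reporter transgenes were heterozygous. Each class was deposited as a male and a female pool, with 655 and 451 endothelial, 998 and 339 mesenchymal, 358 and 39 epithelial, and 255 and 396 immune cells. Of the epithelial cells, 157 male and 37 female ones were annotated as cholangiocytes and 201 and 2 as hepatocytes.

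The depth per cell ran from 47063 to 1128421 counts with a median of 228708, and the total per pool from 6399550 (female epithelial) to 218419420 (male mesenchymal). The 22 plates held cells of 1 sex each, and the female mesenchymal pool was sorted on a single plate. No treatment or genotype was compared. The labels named no individual mouse, so a p-value here measured only the spread between the male and the female pool.

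Wnt proteins are secreted, lipid-modified ligands that bind Frizzled receptors with LRP5 or LRP6 and stabilise beta-catenin. Some, such as WNT5A and WNT11, signal mainly through ROR, RYK and other routes that do not use beta-catenin. R-spondins bind LGR receptors and the ubiquitin ligases ZNRF3 and RNF43, which keeps Frizzled receptors at the cell surface and amplifies the response to Wnt. In the liver, beta-catenin signalling around the central vein is known to maintain the pericentral programme of hepatocytes, and endothelial *Wnt2*, *Wnt9b* and *Rspo3* are known sources of that signal.

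On GRCm38, *Rspo3* lies on the minus strand of chromosome 10 (29452416 to 29535867). *Wnt2* lies on the minus strand of chromosome 6 (17988940 to 18030585) and *Wnt9b* on the minus strand of chromosome 11 (103727364 to 103749821). Promoter sequences of 300 bases (250 before to 50 after the transcript start) from RefSeq on GRCm38.p6 were matched for 7 of the 10 members. Those of *Wnt2* and *Wnt9b* are shown because these were the members with a matched promoter that were called in endothelial cells. They lie on the minus strand at chr6:18030396-18030695 and chr11:103749772-103750071. Both are written in the direction of transcription, with the letters of a GATA-factor motif (GATAA, or TTATC on the other strand) in capitals.
Wnt2: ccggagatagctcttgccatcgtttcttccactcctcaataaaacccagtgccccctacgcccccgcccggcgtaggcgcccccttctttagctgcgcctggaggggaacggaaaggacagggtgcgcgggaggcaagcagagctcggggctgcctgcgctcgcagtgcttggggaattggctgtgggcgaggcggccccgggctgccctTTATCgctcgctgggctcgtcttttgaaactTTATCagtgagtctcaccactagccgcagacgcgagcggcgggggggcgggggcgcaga
Wnt9b: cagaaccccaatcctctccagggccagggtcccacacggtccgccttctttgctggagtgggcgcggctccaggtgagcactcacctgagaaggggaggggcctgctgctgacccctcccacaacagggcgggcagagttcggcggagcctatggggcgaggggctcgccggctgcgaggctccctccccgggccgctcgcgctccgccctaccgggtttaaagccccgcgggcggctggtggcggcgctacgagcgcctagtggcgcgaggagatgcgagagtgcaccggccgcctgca
The *Wnt2* window held 2 GATA motifs, at positions 211 and 242 counted from the first base shown, and the *Wnt9b* window held none. Of 32851 promoter windows of the same length, 25.4% held at least 1 such motif. The TCF/LEF motif (CTTTGA, or TCAAAG on the other strand) was in neither window and in 16% of all windows. Bases G and C made up 65.7% of the *Wnt2* and 71.7% of the *Wnt9b* window. These matches describe letters and were not tested as binding sites.

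The members fell into an endothelial and a mesenchymal group. Levels are given in CPM, depth-scaled counts of the summed cells of a class or cluster in a pool, with the male pool first. *Wnt9b* reached 183 and 297 CPM in endothelial cells and at most 1.81 CPM in any other class. *Wnt2* reached 509 and 621 CPM in endothelial cells. *Rspo3* reached 736 and 1031 CPM there, with a second, lower level of 76.5 and 59.5 CPM in mesenchymal cells. The other members had their highest class level in mesenchymal cells or were rare throughout. *Wnt5a* was at 103 and 83.9, *Wnt4* at 26.8 and 35.2, *Rspo1* at 16.1 and 31.8 and *Wnt5b* at 17.2 and 29.4 CPM in mesenchymal cells. *Rspo2*, *Wnt2b* and *Wnt11* stayed at or under 4.06 CPM in every class. In such sums fewer positive cells and less RNA per cell could not be told apart, so shares of cells are given beside the levels.

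A member was called in a class when it was at least 2-fold above the mean of the other classes at an adjusted p under 0.05. That mean was taken on the log2 scale, here and in the cluster tests below. A member could thus be called beside another class or cluster with a higher level. Counts of calls refer to this higher direction, and members at least 2-fold below at the same limit are given apart as called lower. The test was edgeR's quasi-likelihood test on the sums, adjusted after Benjamini and Hochberg over 24046 genes with all 10 members among them. In endothelial cells 3 of the 10 members were called, beside 5.33% of all genes tested. *Wnt9b* had a log2 fold change of 9.97 ± 1.22 (SE, edgeR adjusted p = 0.0032), *Rspo3* of 6.33 ± 0.50 (adjusted p = 6.9e-04) and *Wnt2* of 5.05 ± 1.11 (adjusted p = 0.030). *Wnt2* was also at 138 CPM in the female epithelial pool, where 1 of 39 cells had 20 or more counts of it.

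In mesenchymal cells 4 of 10 members were called, beside 9.47% of all genes. *Rspo1* was higher by 7.67 ± 1.10 (SE, log2, edgeR adjusted p = 0.0034), *Wnt5a* by 5.31 ± 1.15 (adjusted p = 0.020) and *Wnt4* by 3.68 ± 0.60 (adjusted p = 0.0061). The remaining call, *Rspo2* (edgeR adjusted p = 0.021), rested on 4 mesenchymal cells with 20 or more counts. The difference for *Wnt5b*, 5.73 ± 1.79, had an edgeR adjusted p of 0.085 and was not called. It was called with the pool as a block (9.79 ± 2.09, edgeR adjusted p = 0.027). In epithelial cells 1 of 10 was called, beside 8.37% of all genes, namely *Wnt4* (2.94 ± 0.60, edgeR adjusted p = 0.016) at 14.3 and 31.3 CPM. In immune cells edgeR called 0 of 10, beside 7.92% of all genes. There DESeq2 also called 0, and 0 members were higher at an unadjusted p under 0.05.

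Members called lower in a class are listed next, and some alternatives gave more of them, as counted further below. In endothelial cells they were 2 of 10, beside 2.96% of all genes, *Wnt4* (-3.63 ± 0.84, edgeR adjusted p = 0.036) and *Rspo1* (adjusted p = 0.045, but 0.066 with a block for the pool and 0.071 after thinning to 50000 counts per cell). In immune cells they were 2 of 10, beside 5.25% of all genes, *Rspo3* (-2.72 ± 0.62, edgeR adjusted p = 0.023) and *Wnt4* (-2.99 ± 0.80, adjusted p = 0.045, and 0.052 with upper-quartile factors). *Rspo3* was called lower in epithelial cells, 1 of 10 beside 4.05% of all genes (-5.16 ± 0.73, edgeR adjusted p = 0.0033). *Wnt9b* was called lower in mesenchymal cells, 1 of 10 beside 2.33% of all genes (edgeR adjusted p = 0.043, and 0.051 with the pool as a block).

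**Figure D1:**
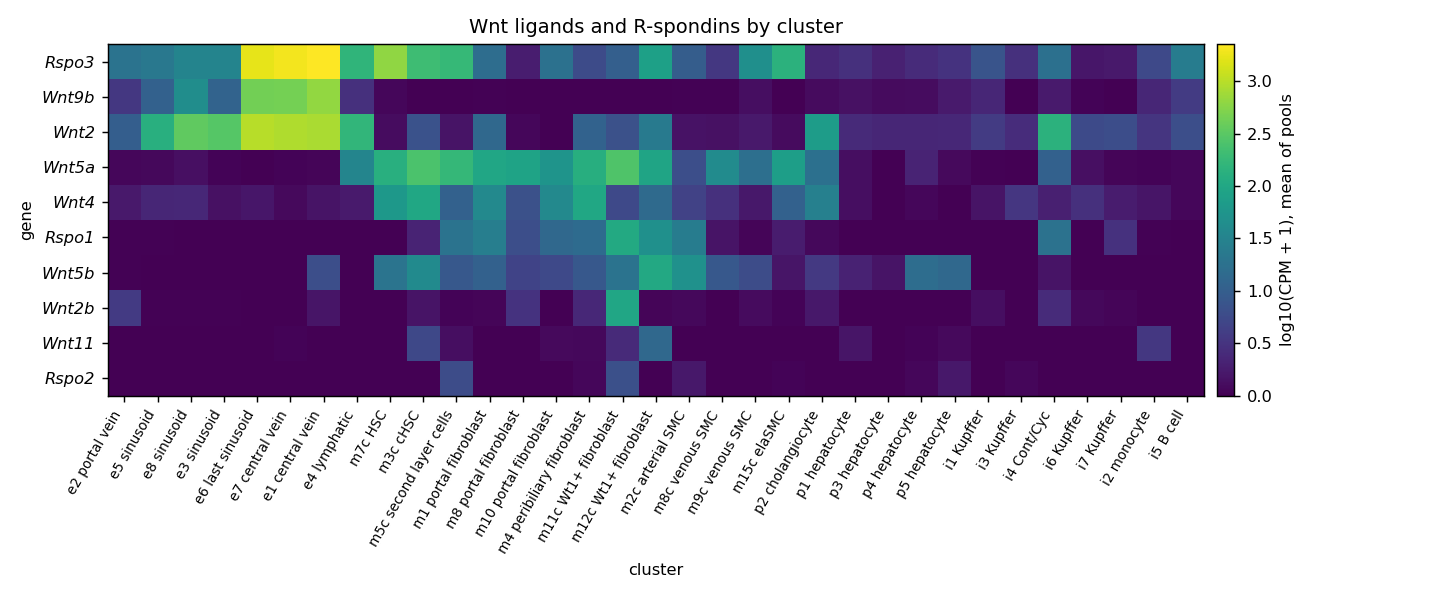
Level of each of the 10 members (log10 of CPM + 1, colour scale) in the sums of cells per cluster, averaged over the male and female pools. *Rspo3*, *Wnt2* and *Wnt9b* are high in #e1, #e6 and #e7, *Rspo3* has a second block in stellate and mural clusters, and *Wnt5a*, *Wnt4*, *Rspo1* and *Wnt5b* are spread over mesenchymal clusters.

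Within the endothelium, *Rspo3*, *Wnt2* and *Wnt9b* shared their highest levels in 3 clusters. These were #e1 and #e7, which the authors annotated as central vein, and #e6, annotated as last sinusoid. *Rspo3*, *Wnt9b* and *Wnt2* were themselves among the markers by which the study named the central vein clusters, so their high level under that name is built in and is given as a description. Levels of other markers are given beside that annotation. The study had found *Selp*, *Cyp1b1* and *Stab2* enriched by zone in these same cells, so they are no independent check of it. The central vein marker *Selp* was at 1292 and 1078 CPM in #e1, 1197 and 896 in #e7 and 1030 and 690 in #e6. A second one, *Cyp1b1*, was at 393 and 300 CPM in #e1, 99.9 and 57.5 in #e7 and 0.165 and 10.3 in #e6. The sinusoidal receptor *Stab2* ran the other way, at 20.3 and 10.2 CPM in #e1, 317 and 318 in #e7 and 611 and 1443 in #e6. The authors had also made all clusters from these same cells and genes, so a test of a cluster against the others gives the size of a difference and no independent evidence for it.

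*Rspo3*, the R-spondin with the most counts in the table, was at 2605 and 1920 CPM in #e1. It was at 2060 and 1857 CPM in #e7 and at 1964 and 1456 CPM in #e6. The order #e1, #e7, #e6 was the same in both pools, while the ranges over the pools overlapped between neighbours. Each of these clusters stood above every other endothelial sum. The sinusoidal clusters had 50.8 and 12.9 CPM (#e3), 28.1 and 34.8 (#e8) and 24.3 and 18.3 (#e5), and the portal vein cluster #e2 had 12.7 and 22.8 CPM. The lymphatic cluster #e4 had 142 and 166 CPM, from 7 of 22 cells with 20 or more counts, beside *Stab2* at 1065 and 233 CPM. Averaged over #e1, #e6 and #e7, *Rspo3* was 64.2-fold (male) and 79.3-fold (female) above the average of #e3, #e5 and #e8. The sinusoidal average was 2.71-fold (male) and 0.966-fold (female) that of #e2.

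*Wnt9b*, a ligand that signals through beta-catenin, had the same clusters at the top and little elsewhere. Its levels were 651 and 635 CPM in #e1, 429 and 460 in #e7 and 474 and 392 in #e6. Cluster #e1 was above #e7 in both pools, and #e7 and #e6 overlapped. The next clusters were #e8 at 51.5 and 33.7, #e3 at 19.1 and 2.15 and #e5 at 17.6 and 2.29 CPM. Clusters #e2 and #e4 were at or under 3.15 CPM. The average of #e1, #e6 and #e7 was 17.6-fold (male) and 39.0-fold (female) that of the sinusoidal clusters.

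*Wnt2*, which also signals through beta-catenin, reached further along the sinusoid. It was at 966 and 1032 CPM in #e6, 851 and 972 in #e7 and 896 and 786 in #e1. Cluster #e6 was above #e7 and #e1 in both pools, and the order of #e7 and #e1 differed between pools. The sinusoidal clusters had 294 and 392 CPM (#e8), 458 and 137 (#e3) and 230 and 31.4 (#e5). The lymphatic cluster had 158 and 167 CPM and the portal vein cluster 4.65 and 13.4 CPM. The average of #e1, #e6 and #e7 was 2.76-fold (male) and 4.98-fold (female) that of the sinusoidal clusters, which in turn was 70.3-fold (male) and 14-fold (female) that of #e2. By annotation and over both pools, *Wnt2* was at 1011 CPM in last sinusoid, 874 in central vein, 376 in other sinusoidal cells and 4.83 in the peribiliary vasculature.

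**Figure D2:**
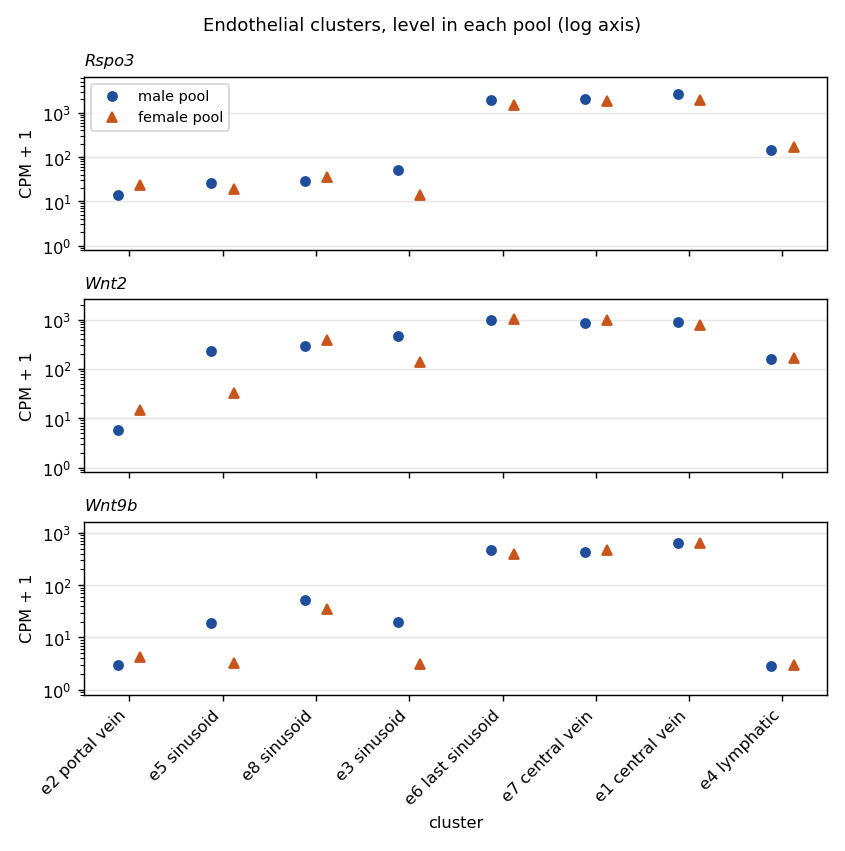
*Rspo3*, *Wnt2* and *Wnt9b* in the 8 endothelial clusters, as CPM + 1 of summed counts on a log axis, with 1 point per pool. All 3 genes are highest in #e1, #e6 and #e7, and *Wnt2* is at 31.4 CPM or more in every sinusoidal sum while it is at 4.65 and 13.4 CPM in #e2.

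Each endothelial cluster was tested against the mean of the other 7 over 18321 genes. Only 6 members entered, since *Rspo1*, *Rspo2*, *Wnt5b* and *Wnt11* were too low in endothelial cells. In #e1, 3 of 6 members were called, beside 1.32% of all genes. The log2 fold changes were 4.36 ± 0.26 (SE) for *Rspo3* (edgeR adjusted p = 1.4e-07), 4.75 ± 0.48 for *Wnt9b* (adjusted p = 4.7e-05) and 2.0 ± 0.45 for *Wnt2* (adjusted p = 0.036). The *Wnt2* call was lost in edgeR with the pool as a block (2.01, adjusted p = 0.051) and in DESeq2 (1.86, adjusted p = 0.094). In #e7 the same members were called, 3 of 6 beside 1.20% of all genes. There *Rspo3* was at 4.45 ± 0.26 (edgeR adjusted p = 1.0e-07), *Wnt9b* at 4.47 ± 0.48 (adjusted p = 1.5e-04) and *Wnt2* at 2.47 ± 0.44 (adjusted p = 0.0086). In #e6, 2 of 6 were called, beside 0.104% of all genes, *Rspo3* at 3.89 ± 0.27 (edgeR adjusted p = 1.9e-06) and *Wnt9b* at 4.09 ± 0.49 (adjusted p = 0.0017). *Wnt2* in #e6, at 2.28 ± 0.44, had an edgeR adjusted p of 0.062, and was called with sums per plate (2.22 ± 0.53, adjusted p = 0.027).

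The sinusoidal clusters had no member called higher. In #e3 (beside 0.519% of all genes), #e5 (0.0437%) and #e8 (0.404%), edgeR and DESeq2 each called 0 of 6 members higher, and 0 were higher at an unadjusted p under 0.05. *Rspo3* was the only member that edgeR called lower in each of them, 1 of 6. It was at -2.71 ± 0.43 in #e3 (edgeR adjusted p = 0.012, beside 0.115% of all genes lower), -3.43 ± 0.46 in #e5 (adjusted p = 0.0055, 0.0327%) and -2.81 ± 0.43 in #e8 (adjusted p = 0.014, 0.0655%). With sums per plate these were lost, at edgeR adjusted p = 1.0, 0.061 and 0.13. The call in #e3 was also lost with sums of at least 10 cells (edgeR adjusted p = 0.076) and that in #e8 after thinning (adjusted p = 0.082). Between #e1 and #e7, edgeR and DESeq2 each called 0 of 6 in either direction, beside 0.0164% of all genes, and *Wnt2b* alone had an unadjusted p under 0.05. The log2 difference of #e1 minus #e7 was -0.08 ± 0.45 for *Rspo3*, 0.24 ± 0.83 for *Wnt9b* and -0.41 ± 0.70 for *Wnt2*, so differences of the size of these errors were not detectable with 2 pools. These differences were scaled by TMM factors and the CPM were not, and for *Rspo3* the CPM was higher in #e1 in both pools, opposite in sign to the fitted value.

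In the portal vein cluster #e2 the 3 endothelial ligands were called lower, 3 of 6 beside 0.0819% of all genes. *Wnt2* was at -5.53 ± 0.80 (edgeR adjusted p = 0.0015), *Wnt9b* at -4.42 ± 0.89 (adjusted p = 0.017) and *Rspo3* at -3.68 ± 0.46 (adjusted p = 4.7e-04). In the lymphatic cluster #e4, 1 of 6 was called lower beside 1.88% of all genes, *Wnt9b* (edgeR adjusted p = 0.0048, and 0.63 with sums per plate). Each of these clusters also had a member called higher, which rested on 1 cell in a pool. In #e2, 1 of 6 was called beside 1.85% of all genes, *Wnt2b* (edgeR adjusted p = 0.017), at 4.84 and 0.526 CPM. A single cell held 100% of the counts in each pool, and with sums of at least 10 cells the edgeR adjusted p was 0.063. DESeq2 gave no adjusted p for it. In #e4, 1 of 6 was called beside 4.92% of all genes, *Wnt5a* (edgeR adjusted p = 2.1e-04), at 1.87 and 63.1 CPM. There 1 of 13 female cells was the only cell with 20 or more counts.

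Because genes differ in length, levels of different ligands were compared per kilobase of exon. In #e1 the level was 843 and 621 CPM per kb for *Rspo3*, 397 and 348 for *Wnt2* and 144 and 140 for *Wnt9b*. On this scale *Rspo3* was above *Wnt2* and *Wnt2* above *Wnt9b* in both pools.

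Single cells showed how these ligands were combined. A cell was counted as positive at 20 or more counts. *Rspo3* was found in 152 of 152 cells of #e1, 103 of 112 cells of #e6 (92.0%, exact binomial 95% interval 85.3% to 96.3%) and 120 of 150 cells of #e7 (80.0%, 72.7% to 86.1%). *Wnt2* was found in 86.2% of #e1, 91.1% of #e6 and 46.0% of #e7 cells. It was also found in 134 of 236 cells of #e3, 75 of 155 of #e8 and 32 of 151 of #e5, against 1 of 128 cells of the portal vein cluster. *Wnt9b* was found in 72.4% of #e1 (64.5% to 79.3%), 54.5% of #e6 (44.8% to 63.9%) and 22.0% of #e7 cells (15.7% to 29.5%). The share of cells with *Wnt9b* was thus lowest in #e7 among the 3 clusters. Intervals cover counting error only, since reads without molecular identifiers are not independent molecules.

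Most cells of #e1 had all of these ligands. Cells with *Rspo3*, *Wnt2* and *Wnt9b* together made up 98 of 152 cells in #e1 (64.5%, 56.3% to 72.1%). They made up 55 of 112 cells in #e6 (49.1%, 39.5% to 58.7%) and 14 of 150 cells in #e7 (9.33%, 5.20% to 15.2%). Every cell of #e1 had at least 1 of the ligands, whereas 19 of 150 cells of #e7 had none. In #e1 all 9 cells with a single ligand had *Rspo3*, and in #e8 66 of 155 cells had *Wnt2* alone. The cells of #e7 were shallower, with a median of 177419 counts against 320683 in #e1 and 296860 in #e6. After thinning every cell to 50000 counts, *Wnt9b* was detected at 1 or more counts in 81.6% of #e1, 67.9% of #e6 and 40.9% of #e7 cells.

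In #e7 the median cell lay far below the level of the sum for *Wnt9b* and *Wnt2*. For *Wnt9b* the median cell had 4.69 and 6.18 CPM in #e7 and the highest 6018 and 5060 CPM. In #e1 the median was 532 and 451 CPM and the highest 2985 and 2429 CPM. The *Wnt2* medians were 38.6 and 41.8 CPM in #e7 against 928 and 758 CPM in #e1. For *Rspo3* they were closer, at 1892 and 1688 CPM in #e7 and 2752 and 2190 CPM in #e1. This difference was described over cells and not tested, since cells of a pool are not replicates.

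**Figure D3:**
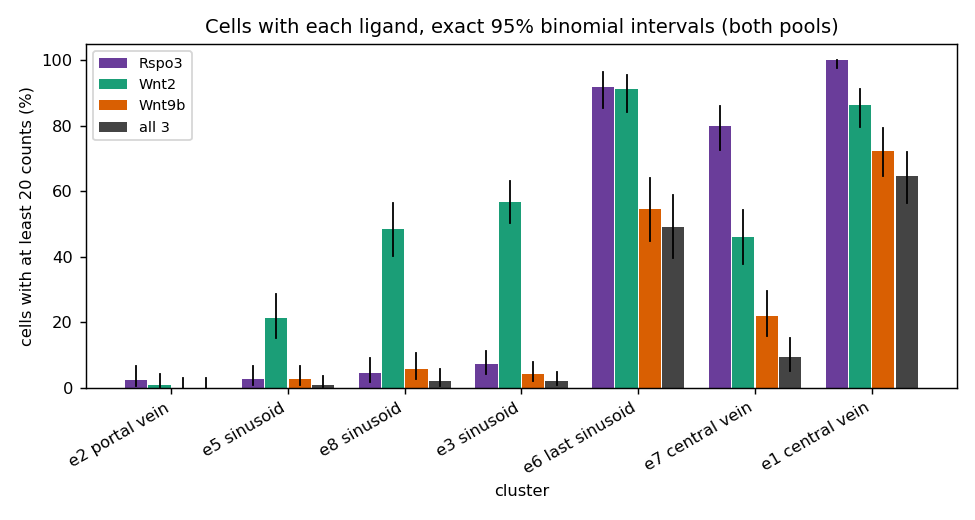
Share of cells (percent) of 7 endothelial clusters with at least 20 counts of *Rspo3*, *Wnt2*, *Wnt9b* or all 3 (bars), both pools together, with exact binomial 95% intervals (lines). Cells with all 3 ligands make up 64.5% of #e1, 49.1% of #e6 and 9.33% of #e7, and 0 of the 128 cells of #e2.

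The central pattern was seen within plates. It could be read on 7 plates, and on all 7 the sum of #e1 and #e7 cells was above that of #e3, #e5 and #e8 cells for each of the 3 genes. *Rspo3* ran from 1348 to 2916 CPM in the central cells of a plate and from 18.9 to 94.7 CPM in the sinusoidal ones. *Wnt2* ran from 478 to 1333 against 166 to 423 CPM, and *Wnt9b* from 448 to 993 against 1.46 to 138 CPM.

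Low counts of these ligands also appeared in cells of other classes, at a frequency that followed the plate. *Rspo3* had at least 1 count in 3.03% of 297 immune cells on a plate that held 0 cells of #e1, #e6 and #e7. On a plate that held 25 such cells it had at least 1 count in 85.6% of 90 immune cells. At 20 or more counts it was found in 0 to 2.22% of immune cells on the 8 plates that held at least 5 of them. *Wnt9b* had at least 1 count in 0 to 100% of the immune cells of these plates, and no immune cell had 20. The part of the plate in these low counts was not tested, and shares of positive cells are given at 20 counts because of them.

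*Wnt2* had at least 1 count in 3.70% to 100% of the immune cells of a plate, with 45.2% of 93 cells on a plate that held 1 cell of #e1, #e6 and #e7. At 20 or more counts it was found in 0 to 2.15% of immune cells on 7 of these plates and in 1 of 6 on the other. *Wnt2* had its highest immune level in cluster #i4, at 206 and 78.1 CPM. There the endothelial gene *Stab2* was at 408 and 834 CPM. By annotation, 26 cells marked "Cont" had *Wnt2* at 536 and 178 CPM and 24 cells marked "Cyc" at 2.11 and 0.610 CPM. The part of endothelial transcripts in this level was not tested.

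**Figure D4:**
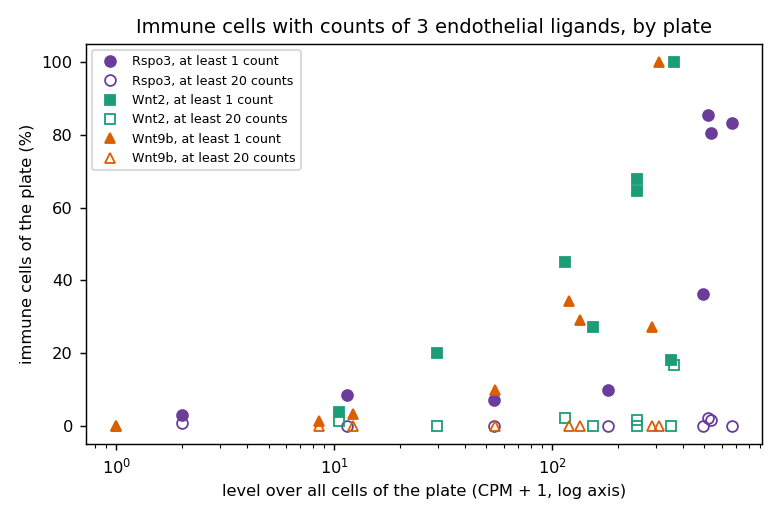
Share of immune cells (percent) with at least 1 count (filled) or 20 counts (open) of *Rspo3*, *Wnt2* and *Wnt9b* on each of 8 plates with at least 5 immune cells, against the level of the gene over all cells of that plate (CPM + 1, log axis). For *Rspo3* the share with 1 count runs from 3.03% to 85.6% between plates and the share with 20 counts from 0 to 2.22%.

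Hepatic stellate cells, the vitamin A-storing cells of the perisinusoidal space, were the second site of *Rspo3*. The stellate cluster #m7c had the markers *Reln* at 3663 CPM and *Lrat* at 1873 CPM and was at 626 CPM of *Rspo3* in the male pool. Its 4 female cells, too few for a sum, were at 1140 CPM. Capsular stellate cells (#m3c), with the marker *Wt1* at 414 and 422 CPM, were at 144 and 270 CPM of *Rspo3*. The second layer cells of vessel walls (#m5c) were at 163 and 186 CPM, smooth muscle cells of large or elastic veins (#m15c) at 138 and 144 CPM. The fibroblast cluster #m12c was at 129 and 29.6 CPM, with 9 of 60 cells at 20 or more counts, and venous smooth muscle cells (#m9c) were at 47.1 and 44.1 CPM. Both pools of #e6 were above #m7c, and #m7c was above both pools of #m3c, which overlapped with #m5c.

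Mesenchymal clusters were each tested against the mean of the others over 21340 genes with 9 members, since *Wnt9b* was too low. *Rspo3* was the only member called in #m7c, 1 of 9 beside 2.30% of all genes. It was higher by 5.02 ± 0.62 (SE, log2, edgeR adjusted p = 9.5e-05). This cluster had a male sum alone, so the spread came from the other clusters and the lone sum was assumed to vary like them. In #m3c, 3 of 9 were called, beside 3.10% of all genes. *Rspo3* was at 3.16 ± 0.56 (edgeR adjusted p = 0.0040) and *Wnt5a* at 1.88 ± 0.48 (adjusted p = 0.032, and 0.055 with the pool as a block). *Wnt11* was the other call (edgeR adjusted p = 0.012), at 2.60 and 5.99 CPM, with counts in 2 male cells and 1 female cell. In #m5c, 2 of 9 were called, beside 2.36% of all genes, *Rspo3* at 2.93 ± 0.57 (edgeR adjusted p = 0.011) and *Rspo2* (adjusted p = 0.014, and 0.057 with the pool as a block). *Rspo2* was at 1.92 and 8.21 CPM there, with 96.6% of the male and 93.5% of the female counts in 1 cell each. In #m15c, *Rspo3* was the only call, 1 of 9 beside 3.24% of all genes (2.52 ± 0.59, edgeR adjusted p = 0.013).

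Some of these calls were lost under other settings. With sums per plate, *Rspo3* in #m15c (2.71, edgeR adjusted p = 0.91) and *Wnt5a* in #m3c (1.89, adjusted p = 0.14) were not called. *Rspo3* in #m15c was also lost after thinning to 50000 counts per cell (2.02, edgeR adjusted p = 0.074), and *Wnt5a* in #m3c with the finer clustering for all cells (1.77, adjusted p = 0.15). DESeq2 did not call *Wnt11* in #m3c (adjusted p = 0.39) or *Rspo2* in #m5c (adjusted p = 0.88). The contrast of #m3c minus #m7c, again with a single sum of #m7c, called 0 of 9 members with edgeR and 0 with DESeq2, beside 0.0234% of all genes in either direction. At an unadjusted p under 0.05 there were 0, and *Rspo3* differed by -1.71 ± 1.16 (edgeR adjusted p = 1.0).

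*Rspo3* was found at 20 or more counts in 51 of 72 cells of #m7c (70.8%, 58.9% to 81.0%), against 39 of 113 in #m3c, 30 of 87 in #m5c and 11 of 33 in #m15c. The endothelial ligands were near 0 in the same cells. *Wnt2* was at 0.288 and *Wnt9b* at 0.144 CPM in #m7c, with 0 of 72 cells at 20 counts for each (exact binomial upper limit 4.99%). The endothelial gene *Cdh5* was at 0.360 and *Pecam1* at 7.49 CPM there. On 3 of 8 plates, which held 40 of the 72 cells and no cell of #e1, #e6 or #e7, *Rspo3* was at 702 CPM and 33 of the 40 cells were positive. Across the 5 plates with at least 5 such cells the level ran from 379 to 1012 CPM.

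**Figure D5:**
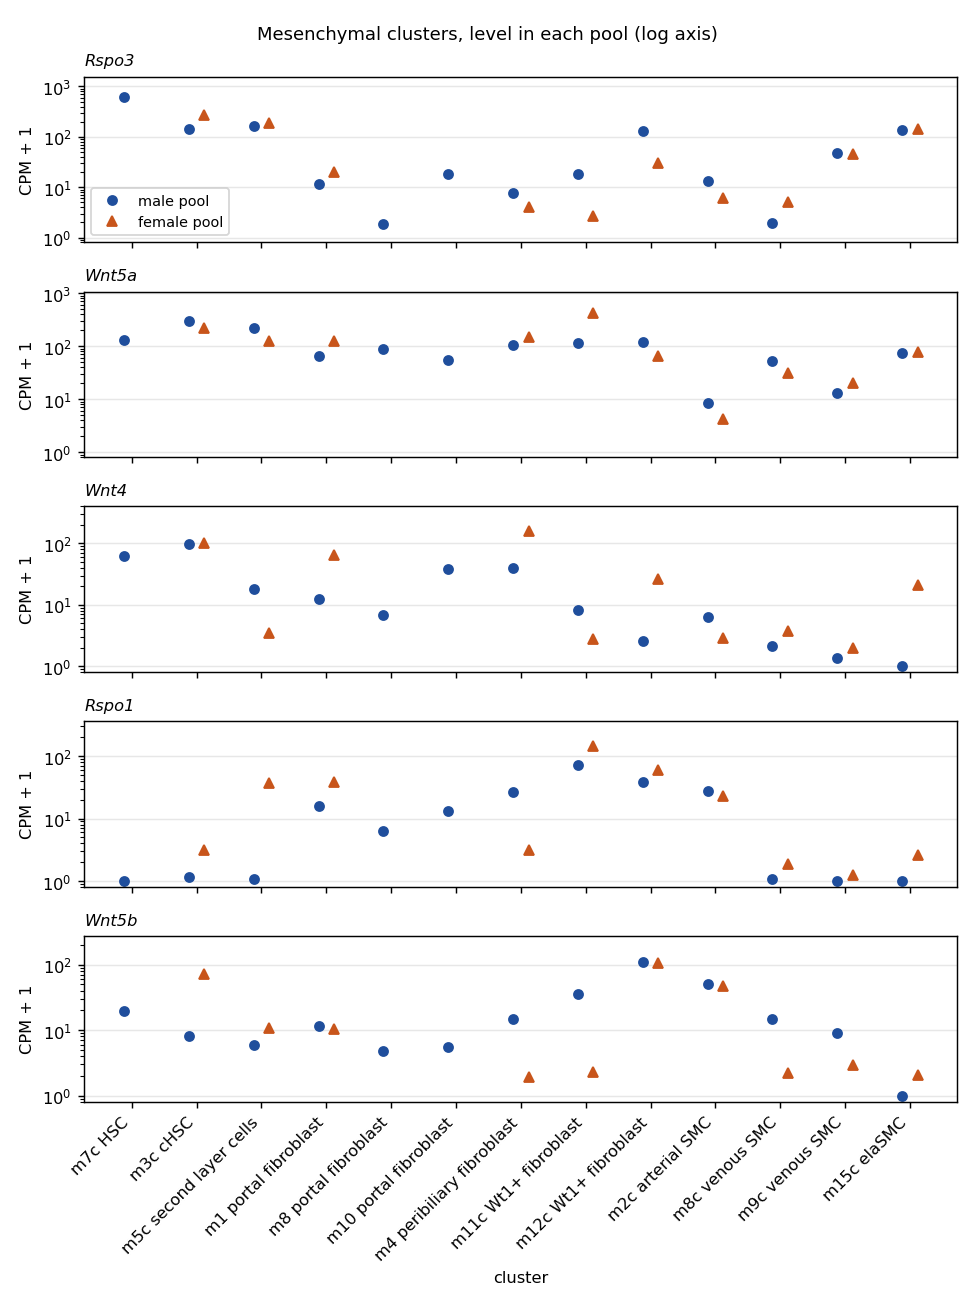
*Rspo3*, *Wnt5a*, *Wnt4*, *Rspo1* and *Wnt5b* in the mesenchymal clusters, as CPM + 1 of summed counts on a log axis with 1 point per pool. *Rspo3* peaks at 626 CPM in #m7c, *Wnt5b* at 108 and 104 CPM in #m12c, and *Wnt5a* is spread over stellate cells, second layer cells and fibroblasts.

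*Wnt5a*, a main ligand of the ROR route, was spread over many stromal clusters. Its highest mean was in the *Wt1*-positive fibroblasts #m11c, at 115 and 429 CPM, with 5 cells in the female sum. It was at 295 and 217 CPM in #m3c, 216 and 125 in #m5c and 129 in #m7c. Fibroblasts had 103 and 147 CPM in the peribiliary cluster #m4, 65.0 and 124 in the portal cluster #m1 and 119 and 63.7 in #m12c. Most neighbours in this order overlapped between pools. Arterial smooth muscle (#m2c) had 7.39 and 3.30 CPM, lower than the mean of the other clusters by 4.05 ± 0.80 on the log2 scale (log2 fold change -4.05, edgeR adjusted p = 0.0020, and 0.25 with sums per plate). At 20 or more counts *Wnt5a* was found in 40 of 113 cells of #m3c, 26 of 87 of #m5c, 50 of 181 of #m1 and 23 of 98 of #m4. Endothelial sums other than those of #e4 were at or under 0.492 CPM.

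*Wnt4*, a ligand known from kidney and reproductive tract development, was shared by stellate cells, fibroblasts and cholangiocytes. It was at 97.5 and 100 CPM in #m3c and 61.0 CPM in #m7c. In #m4 it was at 38.7 and 159 CPM, and the difference of 3.18 ± 0.94 had an edgeR adjusted p of 0.076 and was not called, whereas after thinning it was 4.09 ± 0.83 (adjusted p = 0.0050). Portal fibroblasts had 37.3 CPM in #m10 (male cells only) and 11.3 and 62.8 CPM in #m1. Cholangiocytes (#p2) had 23.3 and 32.0 CPM, with 16 of 194 cells at 20 or more counts. Even in the stromal clusters a minority of cells was positive, 21 of 113 in #m3c, 11 of 72 in #m7c and 14 of 98 in #m4.

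Stellate clusters held *Rspo3*, *Wnt4* and *Wnt5a*, and few cells had all of them. In #m7c, *Rspo3* was found in 51, *Wnt4* in 11 and *Wnt5a* in 12 of 72 cells. All were found in 3 cells, *Rspo3* alone in 37 and none in 15. In #m3c the numbers were 39, 21 and 40 of 113 cells, with all in 5 cells and none in 39. The portal fibroblast cluster #m1 had another mix, with *Rspo3* in 9, *Wnt4* in 26 and *Wnt5a* in 50 of 181 cells.

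*Rspo1*, an R-spondin known from ovary development, was highest in fibroblasts annotated as *Wt1*-positive. It was at 71.3 and 144 CPM in #m11c and at 37.1 and 58.7 CPM in #m12c, with #m11c above #m12c in both pools. The marker *Wt1* itself was at 53.8 and 71.7 CPM in #m11c and at 397 and 248 CPM in #m12c. The next mesenchymal clusters overlapped, at 15.1 and 37.6 CPM in #m1, 26.8 and 22.1 in #m2c, 0.0662 and 35.5 in #m5c, 25.8 and 2.09 in #m4 and 12.4 in #m10. The immune cluster #i4 was at 33.9 and 0.353 CPM, with all male counts in 1 cell. The 6 mesothelial cells, too few for a test, had 257 and 487 CPM, almost all from 1 cell in each pool. At 20 or more counts *Rspo1* was found in 14 of 53 cells of #m11c and 8 of 60 cells of #m12c.

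In #m11c, 4 of 9 members were called, beside 3.25% of all genes. *Rspo1* was higher by 5.29 ± 1.03 (SE, log2, edgeR adjusted p = 0.0043) and *Wnt5a* by 2.06 ± 0.48 (adjusted p = 0.015). The female sum held 5 cells, and with sums of at least 10 cells *Rspo1* was at 4.63 (edgeR adjusted p = 0.060) and *Wnt5a* at 0.88 (adjusted p = 1.0). *Wnt5a* was also lost with sums per plate (1.54, edgeR adjusted p = 0.66) and with the finer clustering for all cells (1.92, adjusted p = 0.10). The other calls were *Wnt2b* (0.0803 and 189 CPM, edgeR adjusted p = 4.1e-04), with 434 of 435 counts in 1 female cell, and *Rspo2* (11.2 and 0 CPM, adjusted p = 0.0048), with counts in 1 male cell, for which DESeq2 gave no adjusted p.

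In #m12c, 4 of 9 members were called, beside 5.15% of all genes. *Wnt5b*, a close relative of *Wnt5a*, was highest there at 108 and 104 CPM, above #m2c at 49.8 and 46.6 CPM. Its log2 fold change was 3.66 ± 0.92 (edgeR adjusted p = 0.018), and 11 of 60 cells had 20 or more counts. *Rspo1* was at 4.02 ± 1.06 (edgeR adjusted p = 0.023). The other calls had their female counts in 1 cell, *Wnt11* at 7.93 and 17.6 CPM (edgeR adjusted p = 0.0011) and *Wnt2* at 0.634 and 43.6 CPM (adjusted p = 0.019). *Wnt2* lost its call with the pool as a block (edgeR adjusted p = 0.17) and with sums per plate (3.49, adjusted p = 0.15). *Wnt5b* lost it with sums per plate (3.64, edgeR adjusted p = 0.17) and *Wnt11* with DESeq2 (adjusted p = 0.073).

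The other 7 mesenchymal clusters had no member called higher. Both edgeR and DESeq2 called 0 of 9 members higher there, beside 2.35% of all genes in #m1, 6.45% in #m2c, 2.67% in #m4, 0.806% in #m8, 3.39% in #m8c, 1.95% in #m9c and 0.0515% in #m10. Members higher at an unadjusted p under 0.05 numbered 2 in #m1, 3 in #m2c, 3 in #m4, 1 in #m8 and 0 in each of #m8c, #m9c and #m10. Members called lower numbered 1 of 9 in #m2c, the *Wnt5a* difference above, beside 1.53% of all genes. In #m8c the number was 1 of 9, beside 0.314% of all genes, *Rspo3* at -3.75 ± 1.02 (edgeR adjusted p = 0.043). That call was lost with the block for the pool (adjusted p = 0.098 in edgeR), after thinning (0.084), with sums of at least 3 cells (1.0) and with the finer clustering for all cells (0.26). The rare members *Rspo2*, *Wnt2b* and *Wnt11* had 20 or more counts in 4, 5 and 6 of all 3491 cells.

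Other genes of the pathway were read in the same tests. Of 13 further ligands, only *Wnt6* reached 50 CPM in any sum, at 51.3 CPM in the female pool of #m11c. There 1 of 5 cells had a count, and *Wnt6* was not called in #m11c (edgeR adjusted p = 0.80). In mesenchymal cells 2 of the 5 tested were called higher, *Wnt6* and *Wnt9a*, beside 9.47% of all genes. In epithelial cells 3 of 5 were called, beside 8.37% of all genes, namely *Wnt10a*, *Wnt7b* and *Wnt9a*. *Wnt9a* was called lower in endothelial and immune cells, 1 of 5 in each, beside 2.96% and 5.25% of all genes. *Wnt10a* and *Wnt7b* had their highest sums in cholangiocytes (#p2), at 18.4 CPM in the female and 11.8 CPM in the male pool. Within the mesenchymal clusters *Wnt10b* was called higher in #m11c (edgeR adjusted p = 0.013) and *Wnt16* in #m4 (adjusted p = 0.032). Each was 1 of 4 tested, beside 3.25% and 2.67% of all genes. Both genes stayed under 50 CPM in every sum, with most other clusters at the lowest fitted value. *Wls*, the carrier that takes Wnt proteins to the cell surface, was called higher in endothelial and mesenchymal cells and lower in epithelial and immune cells. The log2 fold change was 1.27 ± 0.27 (SE) in endothelial cells (edgeR adjusted p = 0.027) and 1.61 ± 0.27 in mesenchymal cells (adjusted p = 0.0070). In epithelial cells it was -1.61 ± 0.32 (edgeR adjusted p = 0.015), with *Wls* at 108 and 66.0 CPM in cholangiocytes. In immune cells it was -1.28 ± 0.32 (edgeR adjusted p = 0.032). *Wls* was at 358 and 420 CPM in #e1, 350 and 586 in #m3c and 383 in #m7c.

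Of 18 receptors tested, 7 were called higher in mesenchymal cells (beside 9.47% of all genes), 5 in epithelial cells (8.37%), 2 in endothelial cells (5.33%) and 0 in immune cells (7.92%). Called lower were 5 in immune cells (*Fzd1*, *Fzd4*, *Fzd6*, *Ror2* and *Ptk7*, beside 5.25% of all genes), *Ror1* in endothelial cells (2.96%) and *Lgr6* in epithelial cells (4.05%). Differences between these counts were not tested. The median log2 fold change of the receptors was 1.65 in mesenchymal, 1.38 in epithelial, -1.26 in endothelial and -2.20 in immune cells, against 0.02, -0.27, 0.04 and 0.09 over all genes. Among the 7 in mesenchymal cells were *Lgr6*, a receptor of R-spondins, *Fzd1* (6.21 ± 0.52, edgeR adjusted p = 4.3e-04) and the WNT5A receptors *Ror1* (4.16 ± 0.67, adjusted p = 0.0060) and *Ror2*. *Ror1* was higher in epithelial cells as well (4.61 ± 0.68, edgeR adjusted p = 0.0041), together with *Fzd3*, *Fzd6*, *Fzd9* and *Ptk7*. In cholangiocytes *Ror1* was at 58.7 and 55.6 CPM. Among hepatocyte clusters (male cells) it was at 26.4 CPM in #p3, from 1 of 23 cells, and at most 0.228 CPM in the others. In the same hepatocyte clusters *Fzd3*, *Fzd9* and *Ptk7* were at or under 0.262 CPM and *Fzd6* at or under 4.98 CPM. *Lgr6* was called higher in #m2c at 211 and 126 CPM, in #m3c at 131 and 59.7 CPM and in #m15c at 87.5 and 170 CPM. In #m2c 3 of 18 receptors were called higher, with *Fzd3* and *Fzd5* (beside 6.45% of all genes). In #m15c 2 were called, with *Lgr4* (3.24%), and in #m3c 1 (3.10%). *Fzd1* in #m4 (2.67%) and *Fzd5* in #m9c (1.95%) were 1 of 18 each. Called lower were 2 in #m2c (*Ryk* and *Ptk7*, 1.53%) and 1 in #m15c (*Ptk7*, 0.829%). In the endothelium 12 were tested, with 1 called higher in #e1 (*Ptk7*, 1.32%) and 2 in #e7 (*Fzd7* and *Ptk7*, 1.20%). In endothelial cells *Fzd6* (4.16 ± 0.44, edgeR adjusted p = 0.0021) and *Lrp6* (1.22 ± 0.29, adjusted p = 0.041) were higher. The epithelial difference of *Fzd6* was 1.71 ± 0.45 (edgeR adjusted p = 0.043).

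Feedback and target genes were also seen in cells that are not hepatocytes. The ubiquitin ligase *Rnf43* was called higher in #e1 (edgeR adjusted p = 0.034) and #e7 (adjusted p = 0.028), with 62.4 CPM in the male pool of #e7, where 4 of 71 cells had a count. Between classes it was called higher in epithelial cells (4.42 ± 0.76, edgeR adjusted p = 0.0078) and lower in mesenchymal cells (adjusted p = 0.013). In cholangiocytes it was at 16.8 and 23.9 CPM, with a count in 18 of 157 and 9 of 37 cells. The related ligase *Znrf3* was also called higher in epithelial cells (2.67 ± 0.50, edgeR adjusted p = 0.011), and lower in endothelial cells (-2.88 ± 0.66, adjusted p = 0.035). In the peribiliary fibroblasts #m4 the receptor *Fzd1* was at 717 and 528 CPM (2.62 ± 0.44, edgeR adjusted p = 0.0018). Of 12 listed hepatocyte targets of beta-catenin, 2 were called higher there, beside 2.67% of all genes, *Sp5* (edgeR adjusted p = 4.8e-04) and *Tbx3* (adjusted p = 0.0053). The same number, 2 of 12, was called higher in #m5c (*Rhbg* and *Cyp2e1*, beside 2.36% of all genes), #m8 (*Glul* and *Rhbg*, 0.806%) and #m8c (*Tbx3* and *Cyp1a2*, 3.39%). In #m2c (*Tbx3*, beside 6.45% of all genes) and #m9c (*Cyp2e1*, 1.95%) 1 of 12 was called higher. *Tbx3* was also called in #e2, 1 of 9 (1.85%), with a count in 3 of 60 female cells. Called lower, 1 of 12 in each, were *Cyp2e1* in #m2c (1.53%) and #m12c (0.445%) and *Oat* in #m3c (0.169%). Between classes 2 of 12 were higher in mesenchymal (*Tbx3* and *Axin2*, 9.47%), epithelial (*Tbx3* and *Cyp1a2*, 8.37%) and immune cells (*Slc1a2* and *Lef1*, 7.92%). *Tbx3* was lower in immune cells, 1 of 12 (5.25%). *Tbx3* was at 68.5 and 98.9 CPM in #m2c and at 76.9 CPM in the male pool of #m4. The highest sums of *Axin2* and *Sp5* in the table, 211 and 92.3 CPM, were in the male pool of #m4. There 49 and 21 of 89 cells had a count. The sums of both genes in the female pool of #m4, with 9 cells, were lower. *Axin2* was not called in #m4 (3.65 ± 1.06, edgeR adjusted p = 0.066).

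Hepatocytes, the cells known to receive these signals, held few ligand transcripts. The clusters #p5 (57 cells), #p3 (23 cells), #p1 (62 cells) and #p4 (59 cells) were set side by side in the male pool alone, with no test. The deposited annotation calls all of them hepatocytes and names no zone. *Glul*, encoding glutamine synthetase, was at 2365 CPM in #p5 (exact Poisson 95% interval 2334 to 2396, for counting error), 997 in #p3, 539 in #p1 and 41.4 in #p4. *Oat*, an ornithine aminotransferase, had the same order, at 4259, 2597, 1494 and 121 CPM. The cytochrome genes peaked in #p3 instead. *Cyp2e1* was at 4561 CPM in #p3, 2770 in #p5, 2335 in #p1 and 201 in #p4, and *Cyp1a2* was at 1528, 273, 218 and 30.3 CPM in the same order. The lowest level of each of these pericentral genes was thus in #p4. Other targets had counts in few cells. *Tbx3* was at 79.6 CPM in #p5, from 12 of 57 cells, 23.6 in #p3, 0.646 in #p1 and 0.455 in #p4. *Axin2* at 35.9 and *Sp5* at 33.0 CPM in #p5 came from 3 and 4 cells. *Sp5* was also at 29.9 CPM in #p1 and 9.95 CPM in #p3, from 1 cell in each. *Lgr5*, a receptor of R-spondins, was at 71.5 CPM in #p3 from 4 of 23 cells and at or under 0.108 CPM in the other hepatocyte clusters. Of the 10 members, 9 were at or under 2.09 CPM in all of these clusters, and *Wnt5b* was at 14.7 CPM in #p4 and 12.5 CPM in #p5, from 5 and 3 cells, and at or under 1.08 CPM in #p1 and #p3.

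The genes most like each member were ranked by Pearson's r of log2(CPM + 1) over 55 sums of clusters and pools, among 13357 genes. These values are a description, because the sums share pools and libraries. *Wnt9b* was closest to *Gm16587* (r = 0.91), *Glp1r* (0.90) and *Ptprr* (0.90). *Wnt2* was closest to *Exoc3l2* (0.88) and the endothelial receptor *Tie1* (0.87). *Rspo3*, split over 2 classes, was closest to *Sema3d* (0.76) and the retinoic acid receptor *Rarb* (0.72). Among stromal members, *Wnt5a* was closest to *RP23.256O22.3* (0.90) and the collagen gene *Col5a1* (0.89), *Wnt4* to *Fam171b* (0.81), *Rspo1* to *Vit* (0.93) and *Wnt5b* to the matrix protease *Adamts5* (0.76). For *Wnt2b*, with 1 cell behind its highest sum, the closest was *Lvrn* (0.69).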

How the data were processed

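Single cells of mouse liver were sorted into plates and sequenced with Smart-seq2. The deposited values are raw counts of reads per gene and cell, for which the submitters' processing notes name bcl2fastq, Bowtie, Bowtie2, Subread, featureCounts and Seurat and the build GRCm38 (mm10). Cells that looked like mixtures of cell types were removed by the authors, who clustered the remaining cells with pagoda2. Versions of the alignment and counting tools and the treatment of duplicate reads are not given in the sources used here, and Smart-seq2 counts carry no molecular identifiers. The table held 46609 rows, of which 92 spike-in rows (1.95% of all counts) were left out. Each cell was assigned to a pool by the class and sex that the deposited cell table gives.

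Counts were summed per class or cluster and pool, with at least 5 cells a sum, and tested with edgeR (version 4.0.16, R version 4.3.3), using glmQLFit and glmQLFTest, TMM factors, filterByExpr and Benjamini-Hochberg adjustment over every gene that passed the filter. Calls needed an adjusted p below 0.05 with a log2 fold change of 1 or more in size. Members called higher and lower are counted apart. Fibroblast clusters #m1, #m4, #m8 and #m10 were taken from the coarser clustering and all other mesenchymal clusters, marked c, from the finer one. The method was tested on simulated data before use. Alternatives were DESeq2 (version 1.42.0), upper-quartile factors, no filter on low counts, other minimum numbers of cells per sum, cells thinned to 50000 counts (13 cells were too shallow), sums per plate, a block for the pool, each pool left out and other cluster definitions.

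Shares of positive cells were first counted at 1 or more counts and are given at 20 or more, a limit preferred after low counts were seen in immune cells. Pool numbers stand for sex. In the sums of the 4 classes the deviations of same-numbered pools were correlated in all 6 of 6 pairs (r from 0.13 to 0.24), and cluster sums of a class share their pool, so the pool was also fitted as a block. The genes named are the 10 members, cell markers, pathway genes that were called or reached 50 CPM (not all of them), and up to 3 genes most alike to each member that reached 20 CPM. The members and lists were chosen with earlier results of these data known.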

Additional observations from a re-analysis of the deposited data

How the results depend on the processing

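The number of members called higher in a class or cluster was 8 between classes (8 to 11 over the alternatives), 10 between endothelial clusters (8 to 12) and 15 between mesenchymal clusters (10 to 21, with 11 by DESeq2, which gave no adjusted p for 1 of the others, 21 without a filter on low counts and 10 with the coarser clusters for all cells). Both direct contrasts, #e1 against #e7 and #m3c against #m7c, had 0 calls under every alternative fitted. Members called lower numbered 6 between classes (12 without a filter on low counts and 13 with sums per plate), 7 between endothelial clusters (3 with sums per plate) and 2 between mesenchymal clusters (8 by DESeq2, and 1 with thinning, with the pool as a block, with sums per plate, with sums of at least 3 cells and with the finer clustering). Of 114 refits of these 15 lower calls, 99 kept the call, 15 lost it and 0 turned. Over the 33 higher calls and 266 refits with an adjusted p, 246 kept direction and threshold, 19 lost the threshold and 1 turned, *Wnt2b* in #m11c, which was at -0.36 with sums of at least 10 cells. DESeq2 lost 4 calls and gave no adjusted p for 2 (*Wnt2b* in #e2, *Rspo2* in #m11c), sums per plate lost 5, sums of at least 10 cells 3, the finer clustering 2 and thinning 1. With the pool as a replicate block, 4 of the 33 calls were lost (*Wnt2* in #e1 and #m12c, *Wnt5a* in #m3c, *Rspo2* in #m5c), 1 was gained (*Wnt5b* in mesenchymal cells, 9.79, adjusted p = 0.027), the counts of calls were 9, 9 and 12, and 3 lower calls were lost (*Rspo1* in endothelial cells, *Wnt9b* in mesenchymal cells, *Rspo3* in #m8c). With 1 pool left out no spread remained, so these refits gave a log2 fold change of the higher calls without a test and no count of calls. Without the male pool 9 moved by more than the spread between pools and 1 turned, and without the female pool 12 moved and 2 turned. It ran from -0.24 to 8.02 for *Wnt2b* in #m11c, from -0.78 to 4.35 for *Rspo2* in #m11c and from -0.58 to 4.98 for *Wnt2* in #m12c, each with 1 cell of 1 pool holding nearly all counts. Shares of positive cells moved by more than their interval in 15 of 25 cases when the limit was 20 counts in place of 1, and in 5 of 25 after thinning.

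Limits apply to all results. Each class had 1 male and 1 female pool, sex and plate could not be told apart, and the number of mice behind a pool was not given. The female sums of #m7c (4 cells) and of #m8 and #m10 could not be formed, so these clusters rest on male cells. Reporter and antibody sorting set which cells were captured, and cluster sizes say nothing of their abundance in tissue.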
